A study of Homo sapiens with 9 samples.

Results

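The B-cell receptor signalling genes examined here were CD79A, CD79B, CD22, MS4A1, SYK, LYN, BLK, BLNK and PLCG2, 9 genes chosen by name out of 14232 genes with a transcript cluster of their own on the array. Earlier results of these data were known when the 9 were chosen. A transcript cluster is the set of exon probes that stands for 1 gene. A gene was represented by the cluster annotated with its symbol and no other, and where several existed by the one with the highest mean over the 9 arrays. All 9 genes had such a cluster, and CD22 had 2. The cells were GM12878, an established human lymphoblastoid line made by transforming B lymphocytes with Epstein-Barr virus. The 3 groups of cultures, each with n = 3 and 1 Affymetrix Human Exon 1.0 ST array per culture, were untreated cells taken at 0 h, cells given 10 µM D,L-sulforaphane for 8 h, and cells given the same dose for 24 h. Cells of every group were seeded at 900000 per ml in medium with 15% serum. The protocol names 0.1% DMSO as the vehicle. Arrays of cells kept with vehicle for 8 or 24 h were not analysed here, so sulforaphane and time in culture cannot be told apart, and all cells came from 1 line.

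The B-cell receptor is a membrane immunoglobulin that cannot signal alone and relies on the paired chains CD79A and CD79B, whose tails carry tyrosine motifs. Src-family kinases such as LYN and BLK phosphorylate these motifs, SYK docks on them, and SYK then phosphorylates the adaptor BLNK, which brings in the phospholipase PLCG2 and so starts calcium release. CD22 restrains the receptor by recruiting the phosphatase PTPN6, and MS4A1 encodes CD20, a surface protein of B cells. In cells carrying Epstein-Barr virus the viral protein LMP2A also binds LYN and SYK. Sulforaphane is an isothiocyanate that reacts with protein thiols and is best known for activating NRF2, a transcription factor that KEAP1 otherwise holds back.

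Values are log2 signals from robust multi-array averaging (RMA), so a difference of 1 is a doubling of signal, and the signal of one gene cannot be set against that of another because their probes differ. Differences were tested with limma over all 22011 clusters, and a gene was called at a Benjamini-Hochberg adjusted p below 0.05. At 24 h against 0 h 357 clusters were called, 183 up and 174 down. That split was 216 up and 344 down after quantile normalization, and 204 up and 306 down after centring each array on its median. At 8 h against 0 h 131 were called and at 24 h against 8 h 72. All 9 genes, and the 8 measured genes of a B-cell marker list (which shares 5 of the 9), lay above the median signal of every array. By contrast, 7 of 9 T-cell, 5 of 6 NK-cell, 7 of 7 myeloid and 5 of 6 fibroblast markers lay below the median on every array, CD3D, CD3E, CD14 and DCN among them. TRAT1, NKG7 and COL1A1 lay above it on all arrays, as did 6 of 7 plasma-cell markers. The mean signal of the B-cell markers lay between 11.27 and 11.33 at 0 h, between 11.17 and 11.29 at 8 h and between 11.22 and 11.28 at 24 h.

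Most of the receptor genes moved little. BLK was the single member called, 1.36-fold higher at 24 h than at 0 h. Of the 9 genes, 1 rose and 0 fell at 24 h, where 1.62% of all clusters were called (0.831% up and 0.791% down). At 8 h 0 were called with limma, where 0.595% of all clusters were (0.268% up and 0.327% down). The count of 1 at 24 h became 0 in each of the 9 fits that left out 1 array. At an unadjusted p below 0.05, 4 genes passed at 24 h (BLK and LYN higher, SYK and CD22 lower), against 20.4% of all clusters, 13.9% higher and 6.45% lower. At 8 h 2 passed (BLK higher, SYK lower), against 15.1% of all clusters, 8.55% higher and 6.57% lower. The median difference of the 9 genes was -0.08 at 24 h and -0.05 at 8 h, beside 0.02 and -0.01 over all clusters. The plot of log2 differences sets the 9 estimates side by side.

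**Figure D1:**
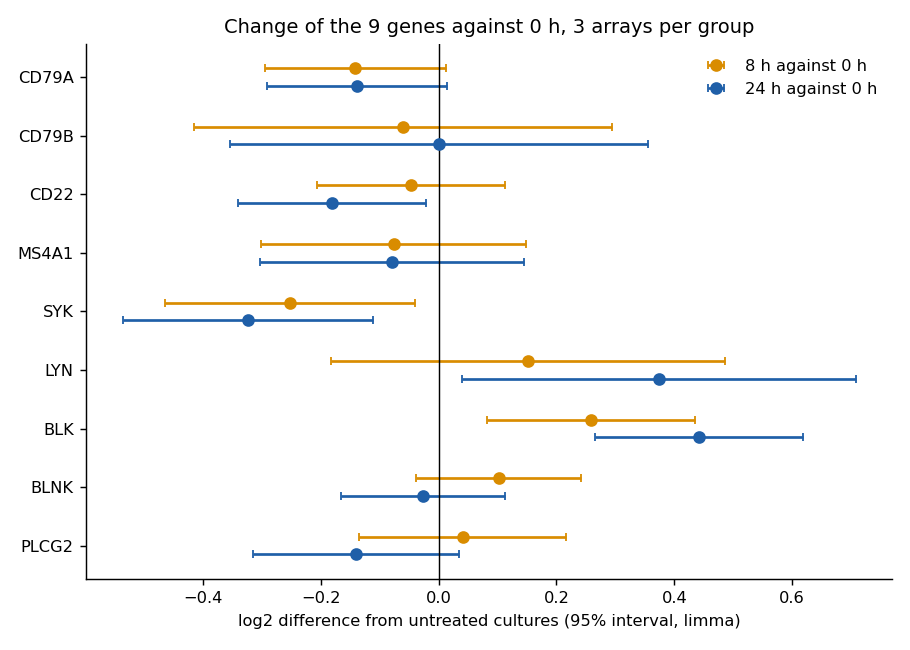
Log2 difference from the untreated cultures (x axis) for each of the 9 genes (y axis), at 8 h (orange) and 24 h (blue). Points are limma estimates and bars are 95% intervals, not adjusted for the number of clusters, from 3 arrays per group. BLK lies to the right of 0 and SYK to the left at both times, while the intervals of CD79A, CD79B, MS4A1, BLNK and PLCG2 include 0 at both.

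Among the receptor chains, CD79A (cluster 3834502) had signals of 12.82, 12.80 and 12.90 at 0 h, 12.75, 12.59 and 12.76 at 8 h, and 12.66, 12.71 and 12.74 at 24 h. All 6 treated arrays lay below the 3 untreated ones, but by a small margin. The difference was -0.14 ± 0.07 (SE) at 8 h (adjusted p = 0.363) and -0.14 ± 0.07 at 24 h (adjusted p = 0.278), and neither passed. CD79B (cluster 3766533), the partner chain, had 10.26, 10.26 and 10.31 at 0 h, 10.42, 9.83 and 10.41 at 8 h, and 10.14, 10.32 and 10.38 at 24 h. Groups overlapped at each time, and the 8 h replicate 2 value of 9.83 lay far below the other two. Its difference was -0.06 ± 0.15 at 8 h (adjusted p = 0.864) and 0.0009 ± 0.15 at 24 h (adjusted p = 0.998). Without 8 h replicate 2 the 8 h difference was 0.14. The 95% interval of CD79B at 24 h ran from -0.35 to 0.36, so a change of up to 1.28-fold either way was not resolved.

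Promoter windows are printed for CD79A, BLNK and PLCG2, since each holds the letters GGAAGT, the core bound by ETS factors such as PU.1, a family that B cells use widely. Each window is the 250 bases before the RefSeq start, 5′ to 3′ on the gene's strand, build GRCh38.p14, and capitals mark GGAAGT. CD79A lies at chr19:41877029-41877278 on the plus strand, BLNK at chr10:96271570-96271819 on the minus strand and PLCG2 at chr16:81738791-81739040 on the plus strand.
CD79A: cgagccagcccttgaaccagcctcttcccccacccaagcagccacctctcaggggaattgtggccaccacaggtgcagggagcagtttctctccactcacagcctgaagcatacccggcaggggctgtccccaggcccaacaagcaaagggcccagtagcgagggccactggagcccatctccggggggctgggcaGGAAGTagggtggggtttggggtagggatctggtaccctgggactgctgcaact
BLNK: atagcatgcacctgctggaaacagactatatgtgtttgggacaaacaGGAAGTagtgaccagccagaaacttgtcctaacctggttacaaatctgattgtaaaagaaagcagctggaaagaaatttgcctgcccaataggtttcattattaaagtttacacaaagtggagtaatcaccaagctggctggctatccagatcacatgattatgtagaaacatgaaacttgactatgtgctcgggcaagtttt
PLCG2: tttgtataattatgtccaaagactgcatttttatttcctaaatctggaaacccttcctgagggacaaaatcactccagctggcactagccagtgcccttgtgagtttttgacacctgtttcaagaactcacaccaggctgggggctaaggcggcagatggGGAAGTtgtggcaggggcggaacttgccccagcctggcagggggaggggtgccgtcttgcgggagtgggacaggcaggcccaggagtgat
The match began 54 bases before the start in CD79A, 203 in BLNK and 90 in PLCG2. Across 35116 windows of the same length in the RefSeq table, 19.5% held GGAAGT on either strand, so a match is common. The window of CD22 held none, and of 3 annotated starts of SYK 1 had it, with 2 matches. The octamer ATGCAAAT and the letters CCCNNGGG, a core read by EBF1, were absent on both strands from the windows of all 5 genes searched, against 1.63% and 17.1% of all windows that hold them. The letters TGACNNNGC, the core of the antioxidant response element that NRF2 reads, occurred once, before the same SYK start, and in 10.9% of all windows. No match overlapped another. These are matches of letters, chosen after the windows had been read, and say nothing of binding in these cells.

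CD22 and MS4A1 are the other surface proteins of the set. CD22 (cluster 3830359) had signals of 12.72, 12.73 and 12.64 at 0 h, 12.70, 12.55 and 12.71 at 8 h, and 12.44, 12.54 and 12.58 at 24 h. The 24 h arrays all lay below the untreated ones, whereas the 8 h arrays overlapped both other groups. CD22 was lower by -0.18 ± 0.07 at 24 h, which did not pass (adjusted p = 0.212), and by -0.05 ± 0.07 at 8 h (adjusted p = 0.752). The second CD22 cluster, 3830353, gave -0.11 ± 0.11 at 24 h (adjusted p = 0.543) and 0.11 ± 0.11 at 8 h (adjusted p = 0.636), so the clusters shared their sign at 24 h and differed in it at 8 h. MS4A1 (cluster 3332403) had 12.91, 13.11 and 13.11 at 0 h, 13.05, 12.79 and 13.06 at 8 h, and 12.87, 12.97 and 13.05 at 24 h. These overlapped throughout. The MS4A1 difference was -0.08 ± 0.10 at 8 h (adjusted p = 0.718) and -0.08 ± 0.10 at 24 h (adjusted p = 0.635). At 24 h its 95% interval ran from -0.30 to 0.15, that is, from 1.23-fold lower to 1.11-fold higher.

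The kinases carried the larger differences, and not all in the same direction. BLK (cluster 3085990), a Src-family kinase found mainly in B cells, had signals of 9.47, 9.43 and 9.56 at 0 h, 9.79, 9.74 and 9.70 at 8 h, and 10.07, 9.81 and 9.91 at 24 h. The 3 groups did not overlap, with 0 h lowest and 24 h highest. BLK rose by 0.44 ± 0.08 at 24 h (adjusted p = 0.0381). The adjusted p lay between 0.0507 and 0.125 when any 1 array was left out, while the difference stayed between 0.37 and 0.50. At 8 h BLK was 0.26 ± 0.08 higher (adjusted p = 0.175), and 24 h exceeded 8 h by 0.18 ± 0.08 (adjusted p = 0.461). Neither of those passed. After quantile normalization the 24 h difference was 0.31 (adjusted p = 0.0851).

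LYN (cluster 3098977), the Src-family kinase that both starts receptor signalling and restrains it through CD22, had signals of 12.19, 11.68 and 12.21 at 0 h, 12.21, 12.19 and 12.13 at 8 h, and 12.56, 12.26 and 12.37 at 24 h. Untreated replicate 2 was much lower than the other untreated arrays, and the 24 h arrays all lay above the remaining 6. LYN was 0.37 ± 0.15 higher at 24 h (adjusted p = 0.215) and 0.15 ± 0.15 higher at 8 h (adjusted p = 0.629), neither called. Without untreated replicate 2 these became 0.20 at 24 h and -0.02 at 8 h. That array stood apart over the whole table as well, with an upper-quartile signal of 9.28 against 9.54 and 9.49 for the other untreated arrays.

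SYK (cluster 3178952), the kinase that links the receptor chains to BLNK, had signals of 9.95, 9.77 and 9.92 at 0 h, 9.70, 9.48 and 9.70 at 8 h, and 9.46, 9.53 and 9.68 at 24 h. Every treated array lay below every untreated one, and the 2 treated groups overlapped. SYK was lower by -0.32 ± 0.09 at 24 h (adjusted p = 0.129) and by -0.25 ± 0.09 at 8 h (adjusted p = 0.257), which did not pass. Under quantile normalization the 24 h difference was -0.45 and passed (adjusted p = 0.0309). It also passed under array weights (-0.30 with gene-by-gene weights, adjusted p = 0.0484). Those weights called 9010 clusters in all at 24 h, or 1889 when fitted gene by gene, against 357 in the main fit. SYK passed at 24 h in 3 of 21 alternatives, and in 0 of the 9 fits without 1 array (adjusted p from 0.109 to 0.379). The ratio of BLK to SYK within an array is left as it is by adding 1 constant per array on the log2 scale. It was 1.70-fold higher at 24 h than at 0 h, a difference of 0.76 on the log2 scale with SDs of 0.20 at 24 h and 0.08 at 0 h. At 8 h it was 1.42-fold higher than at 0 h, with an SD of 0.13 at 8 h. No array of the treated groups overlapped the untreated ones in this ratio. That had to be so, since every treated array lay above the untreated ones in BLK and below them in SYK. The ratio was formed after the values had been seen, adds no evidence of its own and was not tested.

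**Figure D2:**
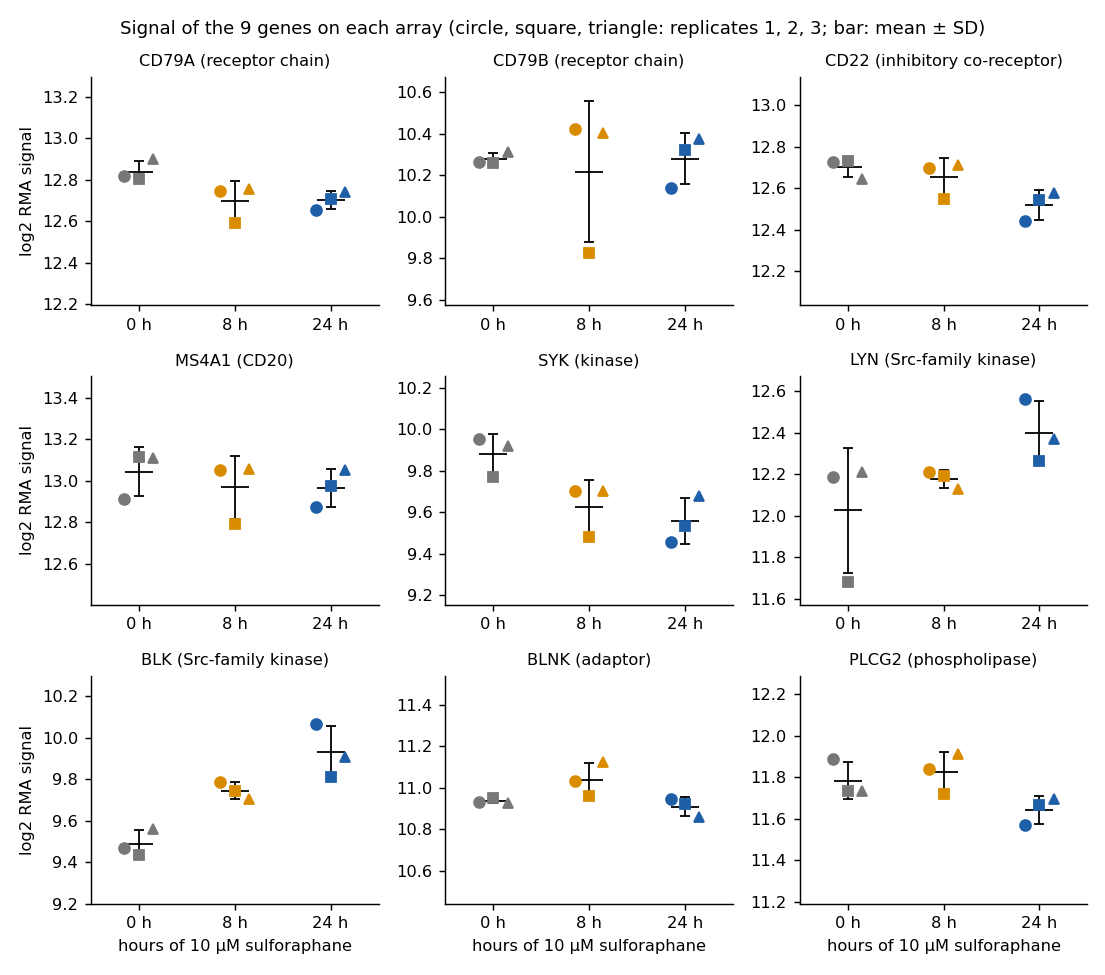
Log2 RMA signal (y axis) of each of the 9 genes on every array at 0, 8 and 24 h of sulforaphane (x axis). Circles, squares and triangles are replicates 1, 2 and 3, horizontal marks with bars are means ± SD, and every panel spans the same range in log2 units. The BLK groups do not overlap, the treated SYK arrays lie below the untreated ones, and single low arrays stand out in CD79B at 8 h and LYN at 0 h.

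Downstream of the kinases the values differed little between the treated and untreated groups. BLNK (cluster 3301713), the adaptor, had signals of 10.93, 10.95 and 10.93 at 0 h, 11.03, 10.96 and 11.12 at 8 h, and 10.95, 10.92 and 10.86 at 24 h. The 8 h arrays lay above both other groups, the lowest of them narrowly, and the 24 h arrays overlapped the untreated ones. BLNK differed by 0.10 ± 0.06 at 8 h (adjusted p = 0.454) and by -0.03 ± 0.06 at 24 h (adjusted p = 0.804). PLCG2 (cluster 3670918), the phospholipase, had 11.89, 11.73 and 11.73 at 0 h, 11.84, 11.72 and 11.91 at 8 h, and 11.57, 11.66 and 11.70 at 24 h. Its 24 h arrays lay below all others. PLCG2 was lower by -0.14 ± 0.08 at 24 h (adjusted p = 0.315) and differed by 0.04 ± 0.08 at 8 h (adjusted p = 0.809). From 8 h to 24 h the differences were -0.18 ± 0.08 for PLCG2 (adjusted p = 0.461) and -0.13 ± 0.06 for BLNK (adjusted p = 0.529).

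Between the treated times, limma called 0 of the 9 genes at 24 h against 8 h, where 0.327% of all clusters were called (0.1% up and 0.227% down). At an unadjusted p below 0.05, 1 was higher (BLK) and 1 lower (PLCG2), against 10.4% of all clusters, 6.91% higher and 3.45% lower. The differences ran from -0.18 for PLCG2 to 0.22 for LYN (0.22 ± 0.15, adjusted p = 0.655). Over the rest of the set they were small: 0.06 ± 0.15 for CD79B (adjusted p = 0.931), -0.13 ± 0.07 for CD22 (adjusted p = 0.570) and -0.07 ± 0.09 for SYK (adjusted p = 0.846). For CD79A and MS4A1 these were 0.0033 and -0.0031, the first with a 95% interval from -0.15 to 0.16 and the second from -0.23 to 0.22.

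Counted by overlap alone, 6 of the 9 genes had 24 h arrays lying wholly on one side of the untreated arrays, 2 above (LYN, BLK) and 4 below (CD79A, CD22, SYK, PLCG2). Of all clusters 24.3% did so, 15.6% above and 8.75% below. At 8 h there were 4, 2 above (BLK, BLNK) and 2 below (CD79A, SYK), against 17.6% of all clusters, 9.06% above and 8.55% below. At 24 h against 8 h there were 4, 2 above (LYN, BLK) and 2 below (BLNK, PLCG2), against 21.6% of all clusters, 15.2% above and 6.4% below. The heat map of centred signals shows the arrays behind these counts. Within the 8 h group replicate 2 had the lowest signal in 7 of the 9 genes. Its median signal over all clusters was 8.04, against 8.09 and 8.08 on the other 8 h arrays. Without 8 h replicate 2 the 8 h differences of CD22 and MS4A1 were 0.0055 and 0.012, and 0 members were called.

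**Figure D3:**
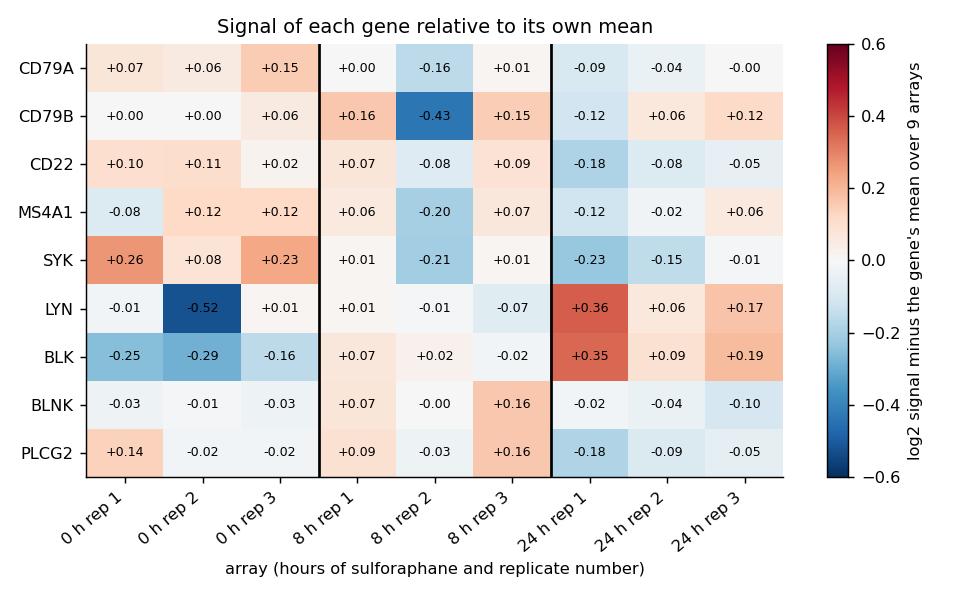
Log2 signal of each gene (rows) on each array (columns) minus that gene's own mean over the 9 arrays, from blue for below to red for above, with the values printed. BLK runs from blue at 0 h to red at 24 h and SYK the other way. On 8 h replicate 2 every gene but BLK is below 0, with LYN, BLNK and PLCG2 only slightly so.

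**Figure D4:**
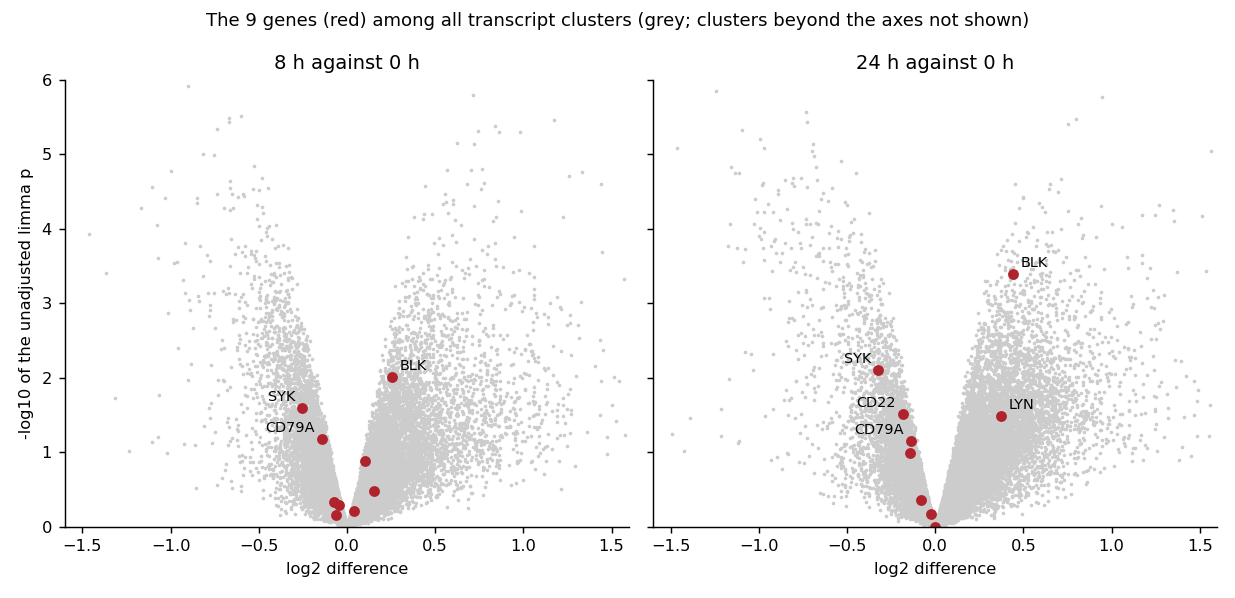
Log2 difference (x axis) against -log10 of the unadjusted limma p (y axis) for all transcript clusters (grey) and the 9 genes (red), at 8 h against 0 h on the left and 24 h against 0 h on the right. BLK is the highest red point in both panels, and most of the 9 lie within the dense centre of the grey cloud.

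Around the 9 genes, other parts of the receptor pathway were counted from lists drawn up by function, with earlier results of these data known. Of 24 measured co-receptors and signalling partners, 0 were called at 24 h and 0 at 8 h. At an unadjusted p below 0.05, 0 were higher and 1 was lower at 24 h, against 13.9% and 6.45% of all clusters, and at 8 h 1 was higher and 2 were lower, against 8.55% and 6.57%. Their median difference was 0.08 at 24 h and 0.0043 at 8 h. The smallest p-values belonged to ITPR3, a calcium channel of the endoplasmic reticulum (-0.24 ± 0.11 at 24 h and -0.47 ± 0.11 at 8 h, adjusted p = 0.106 at 8 h), and VAV1 (-0.19 ± 0.08 at 24 h and -0.25 ± 0.08 at 8 h, adjusted p = 0.194 at 8 h). Named for its role and not by the rule, BTK, the kinase that acts on PLCG2 beside SYK, differed by 0.0058 ± 0.12 at 24 h and -0.0087 ± 0.12 at 8 h.

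Of 20 measured inhibitors and phosphatases, 0 were called at either time with limma. At an unadjusted p below 0.05, 1 was higher and 5 were lower at 24 h, against 13.9% and 6.45% of all clusters, and 1 was higher and 4 were lower at 8 h, against 8.55% and 6.57%. The list's median was -0.04 at 24 h and -0.10 at 8 h. LAIR1, an inhibitory collagen receptor, had 9.36, 9.13 and 9.40 at 8 h against 9.62, 9.83 and 9.79 at 0 h, a difference of -0.45 ± 0.09 (adjusted p = 0.0696). At 24 h LAIR1 had 9.32, 9.30 and 9.35, a difference from 0 h of -0.42 ± 0.09 (adjusted p = 0.0609). The groups were well apart although neither test passed. DOK2, an adaptor that restrains Ras signalling, differed by -0.11 ± 0.06 at 24 h and -0.25 ± 0.06 at 8 h (adjusted p = 0.123 at 8 h).

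Genes that B cells induce after receptor engagement were the list with calls at both times. Of 16 measured, 2 fell and 0 rose at 24 h, and 2 fell and 0 rose at 8 h, with list medians of 0.03 and -0.13. Of all clusters, 0.791% fell at 24 h and 0.327% at 8 h. Of the 16, 3 were higher and 4 lower at 24 h at an unadjusted p below 0.05, against 13.9% and 6.45% of all clusters. At 8 h 2 were higher and 6 lower, against 8.55% and 6.57%. DUSP4, a phosphatase that switches off MAP kinases, had 8.76, 8.87 and 8.91 at 24 h against 9.43, 9.39 and 9.47 at 0 h, and fell by 0.58 ± 0.07 (adjusted p = 0.0144). At 8 h DUSP4 had 8.99, 8.82 and 8.95 and fell by 0.51 ± 0.07 (adjusted p = 0.0230). EGR1, an immediate early transcription factor, had 9.38, 9.24 and 9.35 at 24 h against 9.78, 9.61 and 9.90 at 0 h, and fell by 0.44 ± 0.08 (adjusted p = 0.0480). Its 8 h signals were 9.25, 9.31 and 9.18, 0.51 ± 0.08 below 0 h (adjusted p = 0.0478). With 1 array left out, DUSP4 passed in 6 of 9 fits at 24 h and 3 of 9 at 8 h. EGR1 passed in 1 of 9 at 24 h (that without untreated replicate 2) and 2 of 9 at 8 h (those without untreated replicate 1 or 2). DUSP4 was not called at 24 h without 24 h replicate 1 or 2 or untreated replicate 3, nor at 8 h without any 8 h array, 24 h replicate 2 or 3, or untreated replicate 3.

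**Figure D5:**
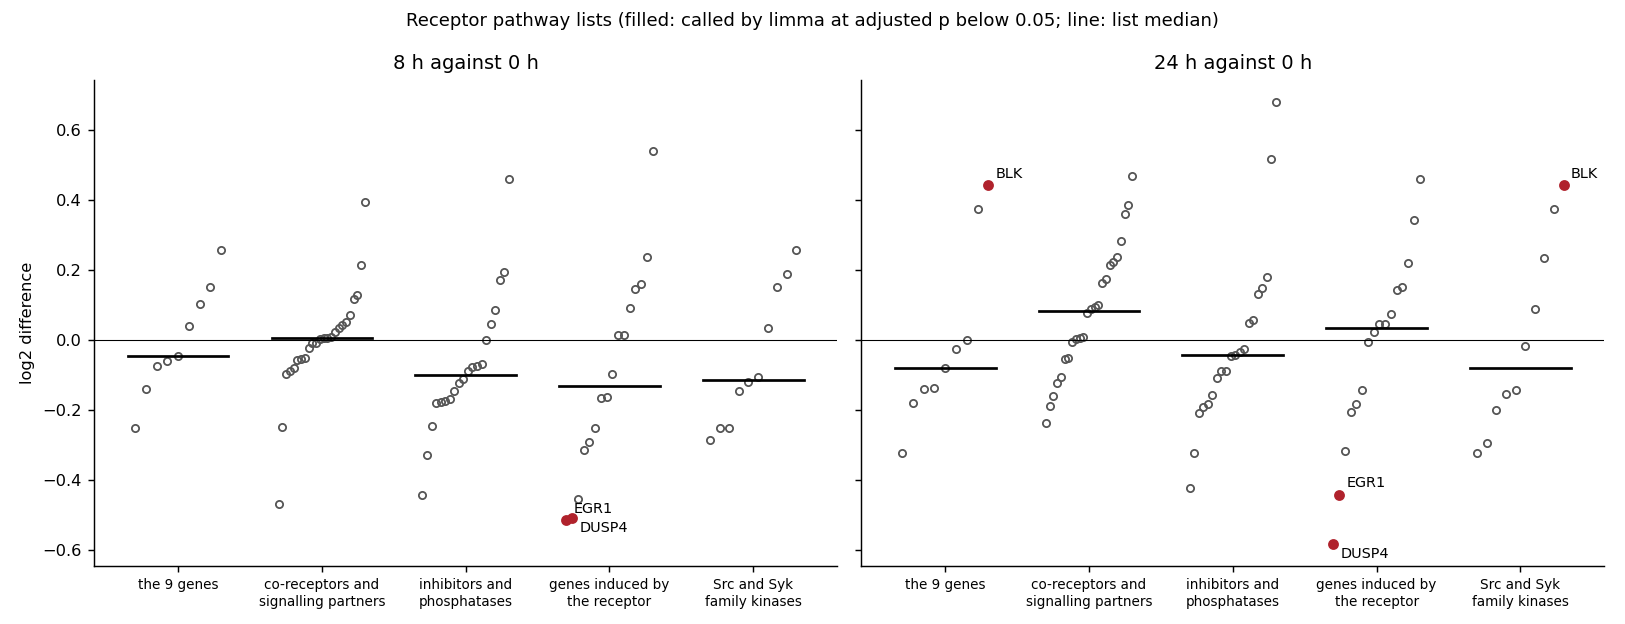
Log2 difference from 0 h (y axis) for the measured genes of 5 lists (x axis), at 8 h on the left and 24 h on the right. Each circle is 1 gene, ordered by value within its list, filled red where limma called it, and black lines are list medians. The Src and Syk list shares SYK, LYN and BLK with the 9 genes, and the filled points are BLK, EGR1 and DUSP4.

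Within the protein families of the members, 10 Src and Syk family kinases were measured, SYK, LYN and BLK among them. Of these 1 rose (BLK) and 0 fell at 24 h, and 0 were called at 8 h. Of all clusters 0.831% rose and 0.791% fell at 24 h, and 0.595% were called at 8 h. At an unadjusted p below 0.05, 3 of the 10 kinases were higher and 4 lower at 24 h, against 13.9% and 6.45% of all clusters. At 8 h 1 was higher and 3 were lower, against 8.55% and 6.57%. The family median was -0.08 at 24 h and -0.11 at 8 h. Of 6 phospholipases C of the gamma and beta classes, 0 were called at either time. PLCG1, which T cells use where B cells use PLCG2, had 9.65, 9.51 and 9.66 at 8 h against 9.94, 9.93 and 9.95 at 0 h, a difference of -0.33 ± 0.06 (adjusted p = 0.0570), while PLCG2 differed by 0.04 ± 0.08. At 24 h PLCG1 differed by -0.13 ± 0.06 (adjusted p = 0.262). PLCB2 differed by -0.07 ± 0.08 at 24 h and -0.19 ± 0.08 at 8 h. Of 9 MS4A family genes, 0 were called at either time, and the 8 other than MS4A1 lay below the median signal on every array. MS4A15 differed by -0.24 ± 0.08 at 24 h (adjusted p = 0.180) and MS4A8 by -0.18 ± 0.06 at 8 h (adjusted p = 0.251). Of 14 immunoglobulin and partner genes 3 had a cluster of their own and 0 were called, with VPREB1, of the surrogate light chain, at -0.08 ± 0.17 at 24 h and 0.26 ± 0.17 at 8 h, and VPREB3 at 0.16 ± 0.12 and 0.07 ± 0.12.

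The genes whose signals followed a member most closely over the 9 arrays were found by Pearson's r, as a description. The 18 genes, 2 for each member, had r between 0.94 and 1.00, the highest of 14232 genes over only 9 points that share groups and normalization. SMAP2 and GDAP2 were nearest to LYN, HECA and TMEM216 to BLK, and EBP and RFWD3 to SYK. FAAP24 and PSMB10 were nearest to CD79A, MYO9B and ASB6 to CD79B, IQGAP1 and MAN2C1 to CD22, PPP6R1 and CORO7 to MS4A1, KANSL1 and CLPTM1 to BLNK, and NRXN3 and SPATA31G1 to PLCG2.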

How the data were processed

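Gene expression was measured in 9 GM12878 cultures. Per the labels, the authors summarised core transcript clusters with gene-level RMA and sketch-quantile normalization in Affymetrix Expression Console, and the deposited values are log2 signals. Software versions, annotation release and genome build: not given in the sources used here. Of 22011 clusters 14432 had 1 symbol, 2408 several and 5171 none, after updating symbols through gene identifiers in RefSeq. All were tested, since no label marks the control clusters.

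Here 1 linear model with a mean for each group was fitted across all 9 arrays (limma 3.58.1, R 4.3.3), followed by eBayes and two-sided tests. Intervals are at 95%. Each culture gave its own RNA, and 3 arrays per group limit the precision. The replicate number was not used as a block. The members and lists were chosen with earlier results of these data known. Text names the members, the called or 2 lowest-p genes of each pathway list, and the 2 genes most like each member. Genes of the marker lists, and BTK, were also named outside this rule. Alternatives covered filters, scaling, variance models, array weights, the replicate block, thresholds and leaving out arrays. Array weights fitted gene by gene, and leaving out both arrays that stood apart, were added after seeing the data. The fit was tested on simulated data for 8 h against 0 h. It recovered 58% of changes of 1.5-fold and 78% of changes of 2-fold, with 8 false calls among 175. The smallest change scored was 1.5-fold, above the 1.36-fold of BLK at 24 h, so these rates do not cover changes of the members' size.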

Additional observations from a re-analysis of the deposited data

How the results depend on the processing

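Over 21 alternatives, the 24 h rise of BLK kept its direction, with differences from 0.31 to 0.50, but passed in only 7 of them. The limma F test of any change among the 3 groups did not pass for BLK (adjusted p = 0.0669). The number of members called at 24 h was 1 as reported, 0 with the replicate block (BLK adjusted p = 0.0507), 0 with only the 2 groups compared, 0 at an adjusted p below 0.01, and 0 without 8 h replicate 2 and untreated replicate 2 together. It was 2 with array weights fitted gene by gene, 4 with common array weights, and 4 at an unadjusted p below 0.05. It was 0 without each array in turn. After quantile normalization the 1 call was SYK and not BLK. At 8 h the count of 0 became 5 with array weights and 2 at an unadjusted p below 0.05. At 24 h against 8 h it became 2 at an unadjusted p below 0.05. The common array weights stopped before reaching their convergence tolerance. The replicate block changed no other call of a member, but ended those of EGR1 (adjusted p = 0.0629 at 24 h and adjusted p = 0.0775 at 8 h) and DUSP4 at 8 h (adjusted p = 0.0543). Same-numbered arrays had correlations of their deviations from -0.14 to 0.10 at 8 h against 0 h. These ran from 0.06 to 0.39 at 24 h against 0 h and from -0.03 to 0.01 at 24 h against 8 h. Arrays with different numbers had values from -0.42 to 0.13 at 24 h against 0 h. Not every same-numbered pair passed 0.1, and the numbers were not taken to pair the samples. Whether equal numbers share a batch was not tested. Quantile normalization added ITPR3 at 24 h (-0.37, adjusted p = 0.0442) and 8 h (-0.52, adjusted p = 0.0197) and LAIR1 at 24 h (-0.55, adjusted p = 0.0445). Of 21 alternatives, ITPR3 passed in 3 at 24 h and 5 at 8 h, LAIR1 in 8 and 5, PLCG1 in 1 and 5, DOK2 in 0 and 2, and VAV1 in 1 and 1.

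All clusters called at 8 h, 131 as reported, were 85 with the replicate block, 302 without the dimmest 25%, 312 without those below the median, 390 with quantile normalization, 288 with centring, 9603 with array weights, 1703 gene by gene, 9 with only the 2 groups, 19 at 0.01 and 3328 unadjusted, and from 9 to 654 without 1 array. At 24 h, 357 became 560 with quantile normalization, 9010 with array weights, 1889 gene by gene, 20 with only the 2 groups, 24 at 0.01 and 4489 unadjusted, and from 21 to 768 without 1 array. At 24 h against 8 h, 72 became 44 with the replicate block, 115 without clusters below the median, 109 with quantile normalization, 1516 with array weights, 1325 gene by gene, 25 with only the 2 groups, 19 at 0.01 and 2281 unadjusted, and from 4 to 160 without 1 array. The cause was not tested.

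Signs turned only for differences that were not called. For CD79B at 8 h the difference was 0.050 with array weights, 0.039 gene by gene, 0.13 without both arrays that stood apart, and from -0.16 to 0.14 without 1 array. At 24 h it was -0.11 with quantile normalization, -0.062 with centring, -0.0090 without both arrays, and from -0.047 to 0.070 without 1 array. At 24 h against 8 h it was -0.0058 with quantile normalization, -0.034 with array weights, -0.0031 gene by gene, -0.13 without both arrays, and from -0.13 to 0.16 without 1 array. For CD22 at 8 h it was 0.043 with array weights, 0.016 gene by gene, 0.021 without both arrays, 0.033 with both clusters averaged, and from -0.077 to 0.0055 without 1 array. For MS4A1 it was 0.046 at 8 h without both arrays, from -0.14 to 0.012 when 1 array was left out, 0.011 at 24 h against 8 h with quantile normalization, and from -0.091 to 0.043 for the same times with 1 array left out. For LYN at 8 h it was -0.020 with array weights, -0.028 without both arrays, and from -0.021 to 0.24 with 1 array left out. For PLCG2 at 8 h it was -0.020 with quantile normalization and from -0.0030 to 0.093 with 1 array left out. For CD79A at 24 h against 8 h it was -0.00080 with quantile normalization, -0.037 with centring, -0.014 with array weights, -0.0069 gene by gene, -0.051 without both arrays, and from -0.051 to 0.032 with 1 array left out. With 1 array left out VPREB3 at 8 h ran from -0.033 to 0.17 and VPREB1 at 24 h from -0.26 to 0.037. With 3 arrays per group, the 95% interval of CD79B at 24 h ran from -0.35 to 0.36.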

Other observations

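Plasma-cell markers, counted beside the receptor genes because B cells lose several of these on becoming plasma cells, gave 0 calls among 7 measured genes at 24 h and at 8 h with limma. At an unadjusted p below 0.05, 3 were higher and 0 lower at 24 h, against 13.9% and 6.45% of all clusters, and 2 were higher and 1 lower at 8 h, against 8.55% and 6.57%. TNFRSF17, a receptor for B-cell survival factors and named after its values were seen, was 0.57 ± 0.14 higher at 24 h (adjusted p = 0.101) and 0.78 ± 0.14 higher at 8 h (adjusted p = 0.0618). IRF4, a transcription factor of activated B cells and plasma cells, was 0.32 ± 0.09 higher at both times (adjusted p = 0.116 at 24 h and adjusted p = 0.145 at 8 h). Of the 7 genes, 6 lay above the median signal on every array. SDC1, the surface marker of mature plasma cells, was the 1 that lay below it on every array. JCHAIN, which joins secreted immunoglobulins, differed by 0.01 ± 0.16 at 24 h and -0.04 ± 0.16 at 8 h.

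Of the marker lists of other cell types, T-cell markers held 0 calls of 9 measured, NK-cell markers 0 of 6, myeloid markers 0 of 7 and fibroblast markers 0 of 6 at each time. At an unadjusted p below 0.05 and 24 h, 0 myeloid markers were higher and 2 lower, 1 T-cell marker was higher and 1 lower, 0 NK-cell markers were higher and 1 lower, and 0 fibroblast markers passed, against 13.9% higher and 6.45% lower of all clusters. At 8 h 0 of these markers were higher, while 2 myeloid, 1 T-cell, 1 NK-cell and 0 fibroblast markers were lower, against 8.55% higher and 6.57% lower of all clusters. The 7 myeloid genes had a median of -0.15 at 24 h and -0.28 at 8 h, beside 0.02 and -0.01 over all clusters. All 7 lay below the median signal on every array, so these are differences between low signals.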
